A study of Mus musculus with 3 samples.

Results

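The TRIM (tripartite motif) genes were described in RNA bound to chromatin of mouse macrophages. The members were all genes whose symbol is Trim followed by a digit and that have at least 1 transcript annotated as protein coding, which gave 68 of the 21888 protein-coding genes of the annotation. Mitochondrially encoded genes were left out of the 21888 and of the protein-coding TPM throughout. The cells were bone-marrow-derived macrophages, which are grown in culture from marrow, here of C57BL/6J mice with no genetic change named in the labels. All 3 libraries belong to 1 group. Lipid A, the membrane anchor of lipopolysaccharide and the ligand of Toll-like receptor 4, was given at 100 ng/ml for 12 h, withdrawn for 12 h, and given again at 100 ng/ml for 90 min before the chromatin fraction was taken. Age and sex of the mice were not collected, and there is no untreated group among the samples. Levels are therefore those of restimulated macrophages, and no change upon lipid A can be read from them. The libraries carry biological replicate numbers 1, 2 and 3 and separate biosample entries but share 1 donor entry. No label ties them to separate cultures or animals, so SDs and p-values measure only how these 3 libraries vary, which may be technical.

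TRIM proteins carry, in order, a RING finger, 1 or 2 B-box zinc fingers and a coiled coil. The RING finger makes most of them E3 ubiquitin ligases, enzymes that take ubiquitin from an E2 enzyme and pass it to a target, and the C-terminal domain, often a PRY-SPRY domain, chooses the target. In macrophages many of them act on the pathways that sense viral nucleic acid and bacterial lipopolysaccharide, several are made in response to interferon, and others are chromatin corepressors or are found mainly in muscle, brain, testis or embryo.

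The libraries held 12671700, 21747001 and 16915406 expected counts in replicates 1, 2 and 3, which were made from 1 µg, 250 ng and 500 ng of RNA. Levels are given in TPM, a length-corrected share of all transcripts of a library. Protein-coding genes held 34.1%, 27.3% and 29.3% of the TPM, so replicate 1 had more of its TPM on such genes. All 10 macrophage markers examined were at 1 TPM or more in each library, and their summed level was 852 to 1049 TPM. Of 38 markers of other lineages (granulocytes, lymphocytes, fibroblasts, dendritic and erythroid cells, muscle, neurons), only Alas2, an enzyme of heme synthesis, reached 1 TPM in each library, with a mean of 4.43 TPM. In the transcript table made from reads directly, all 10 macrophage markers and 8 of the 38 others were at 1 TPM or more in each library, the highest of the 8 being the T cell gene Cd3d, with a mean of 16.3 TPM. In bulk RNA, fewer cells of a type and less RNA per cell cannot be told apart.

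Of the 68 TRIM genes, 36 were at 1 TPM or more in each library, a limit that 41.2% of all protein-coding genes passed. At 10 TPM or more in each library there were 19 members, against 19.3% of protein-coding genes, and at 100 TPM or more there were 2, against 2.08%. A further 5 members (Trim46, Trim2, Trim47, Trim32 and Trim16) passed 1 TPM in some of the libraries, 16 were above 0 but below 1 TPM in each, and 11 were listed at 0 in all 3. The median over all 68 was 1.53 ± 0.087 TPM (SD, n = 3 libraries), and over all protein-coding genes it was 0.363 ± 0.0058 TPM. Members held 0.464% ± 0.023 of the protein-coding TPM (SD, n = 3) and made up 0.311% of the genes. That total was uneven: the 7 highest members held 68.5% ± 2.73 of it (SD, n = 3), and Trim30a held 19.0% ± 0.66.

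**Figure D1:**
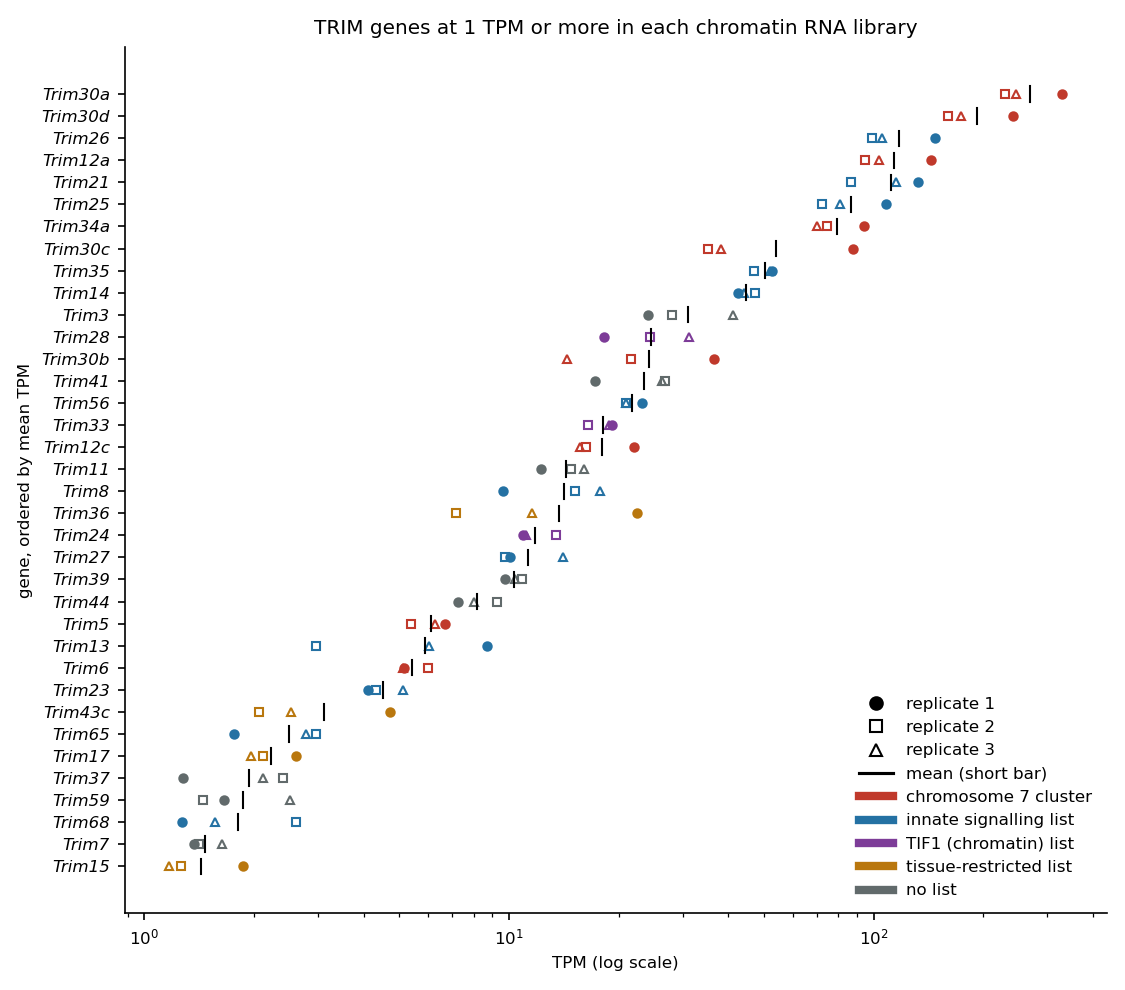
TPM (log scale) of the 36 TRIM genes at 1 TPM or more in each library, ordered by mean TPM; symbols are the 3 replicates, the short black bar is their mean and colours are the gene lists. Genes of the chromosome 7 cluster (red) take 4 of the 7 highest places, and replicate 1 lies to the right in the upper part of the plot.

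Trim30a and Trim30d, the members with the highest means, are neighbours in a cluster on chromosome 7, which also holds Trim12a and Trim34a. Trim26, Trim21 and Trim25, also among the 7 highest, lie outside it. The cluster holds 10 members (Trim6, Trim34a, Trim5, Trim12a, Trim34b, Trim12c, Trim30b, Trim30c, Trim30a and Trim30d) within chr7:104218793-104507849 of mm10, a span of 289 kb with 0 other protein-coding genes in it. It is the mouse counterpart of the human region around TRIM5, whose product recognises the capsid of retroviruses entering the cell. In these libraries 9 of the 10 were at 1 TPM or more in each library and 7 at 10 TPM or more. The cluster held 57.9%, 52.6% and 50.5% of the members' TPM in replicates 1, 2 and 3 (mean 53.7% ± 3.85, SD). The median of the 10 was 62.4, 28.4 and 27.0 TPM in replicates 1, 2 and 3 (mean 39.3 ± 20.0, SD). Over the 58 members elsewhere the median was 1.08 ± 0.096 TPM (SD, n = 3).

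Trim30a had the highest mean of any member. The 3 libraries gave 330, 229 and 246 TPM, with replicate 1 the highest. Its product is known as a feedback inhibitor that lowers Toll-like receptor signalling by promoting the loss of TAB2 and TAB3, adaptors of the kinase TAK1. Its neighbour Trim30d was at 242, 160 and 173 TPM, below Trim30a in each library. Trim30c was at 88.1, 35.2 and 38.3 TPM and Trim30b at 36.6, 21.6 and 14.4 TPM. The 4 Trim30 genes together held 70.5% ± 1.32 of the cluster's TPM (SD, n = 3). A related pseudogene just beyond the cluster, Trim30e-ps1, had a mean of 0.0133 TPM, from 1 count in 1 library.

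Trim12a was at 144, 94.7 and 103 TPM in replicates 1, 2 and 3, and its close relative Trim12c at 22.1, 16.3 and 15.7 TPM. Both are mouse relatives of TRIM5. The gene named Trim5 in the mouse was at 6.66, 5.40 and 6.28 TPM, well under Trim12a. Trim34a was at 93.9, 74.5 and 69.8 TPM, while Trim34b, its near copy, was at 0.52, 0.56 and 0.24 TPM. Trim6, which is known to make free ubiquitin chains that help the kinase IKK-epsilon in interferon signalling, was at 5.15, 5.98 and 5.11 TPM. The groups of values did not overlap between Trim12a and Trim12c, or between Trim34a and either Trim5 or Trim6.

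**Figure D2:**
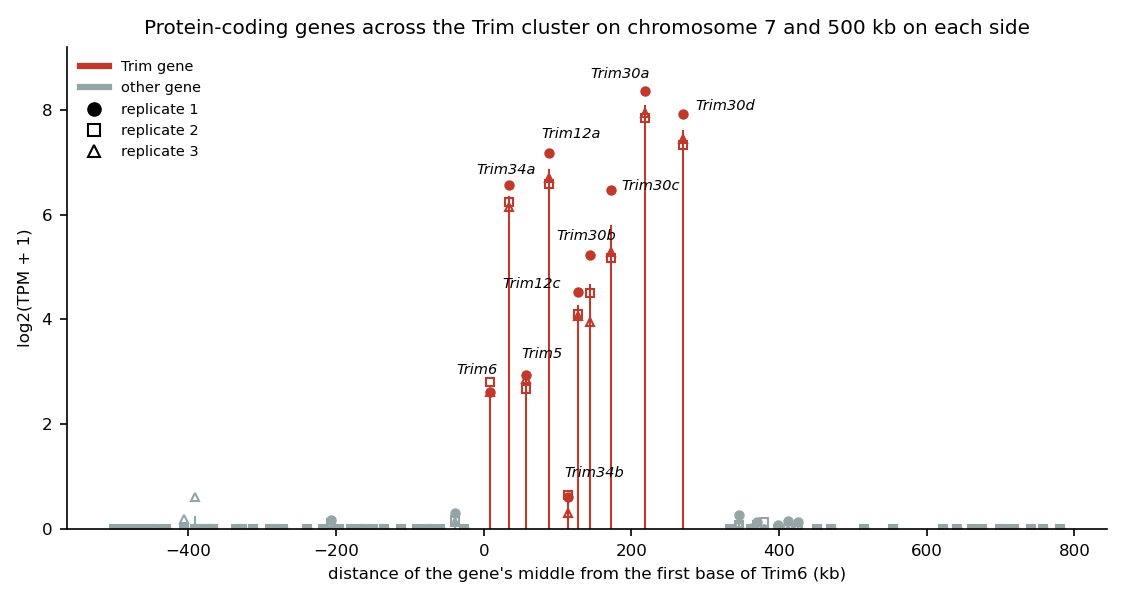
log2(TPM + 1) of protein-coding genes against the distance of each gene's middle from the first base of Trim6 (kb), for the cluster and 500 kb on each side; symbols are the 3 replicates, lines reach the mean, red marks Trim genes and grey other genes. Of 56 flanking genes none reached 1 TPM in each library, while 9 of the 10 Trim genes did.

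Genes around the cluster had little or no signal in these libraries. Within 500000 bases on each side the annotation has 56 other protein-coding genes, of which 43 are olfactory receptors, and 0 of the 56 were at 1 TPM or more in each library. Another set of TRIM genes, in the major histocompatibility region of chromosome 17, was mixed. There Trim26 had a mean of 118 TPM, Trim39 10.3 and Trim15 1.43 TPM, and Trim10, Trim40 and Trim31 were listed at 0 in each library.

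Differences between paralogues were taken within each library on the log2(TPM + 1) scale, which understates the difference of low genes. Trim30a was above Trim30d by 0.49 ± 0.04 (SD, n = 3), a ratio of TPM between 1.36 and 1.43; it was 0.81 in the table made from reads directly and 0.85 in log2 CPM with no length correction. Trim12a was above Trim12c by 2.59 ± 0.10, a ratio of 5.82 to 6.59, and by 1.61 in log2 CPM with no length correction. The level of Trim30a exceeded that of Trim30b by 3.50 ± 0.45, with ratios of 9.00, 10.6 and 17.1 in replicates 1 to 3. Trim34a was above Trim34b by 5.80 ± 0.19, the widest of the 4 pairs compared. Each difference had the same sign in 3 of 3 libraries and was larger than its SD. The exact two-sided sign-flip permutation test gave p = 0.25 for each pair (Benjamini-Hochberg adjusted p = 0.25 over the 4 pairs), which is the smallest value that 3 libraries allow, so none passes 0.05.

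Near-identical copies limit how far some of these levels can be assigned to 1 gene. Of the 31-base words in the transcripts of Trim34b, 69.0% also occur in Trim34a, and 48.7% of those of Trim34a occur in Trim34b. For Trim5 52.9% of the words occur in transcripts of another gene, mostly Trim12c (37.9%), and for Trim12c the share was 47.7%. The Trim30 genes were more distinct, at 11.7% for Trim30a, 11.9% for Trim30d, 5.69% for Trim30c and 2.60% for Trim30b. The low Trim34b level is therefore uncertain, and in the table made from reads directly it was 2.71 TPM on average. Trim30d also contains, on the same strand, the processed pseudogene Gm16464, listed with a mean of 63.8 TPM.

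Promoters of the members were read from RefSeq (GRCm38.p6, 250 bases before to 50 after each start), which held 53 of the 68 genes. The interferon-stimulated response element, a motif found in the promoters of many interferon-induced genes, was searched on either strand as GAAA, any 2 bases, GAAA. A match was found for 9 of the 53 members, namely Trim30a, Trim30d, Trim26, Trim12a, Trim21, Trim34a, Trim12c, Trim5 and Trim2, and for 3.99% of all 27025 genes with a promoter (3.44% of 32851 promoters). It was present for 6 of the 10 cluster genes and for 6 of the 9 genes with a RefSeq promoter among the 12 highest members. Of members at 1 TPM or more in each library 8 of 26 had it, and of the others 1 of 27. The windows below show these matches for all of the 9 but Trim2, to compare paralogues that differ in level. Each is written 5′ to 3′ on the gene's strand, with the match in capitals (the reverse strand reads TTTC, any 2 bases, TTTC).
Trim30a, chr7:104465195-104465254, minus strand: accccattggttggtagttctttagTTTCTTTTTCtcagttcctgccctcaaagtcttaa
Trim30a, other start, chr7:104446096-104446148, minus strand: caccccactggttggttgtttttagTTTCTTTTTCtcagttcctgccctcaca
Trim30d, chr7:104507856-104507915, minus strand: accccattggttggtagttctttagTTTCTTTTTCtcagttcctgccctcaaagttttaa
Trim12a, chr7:104315466-104315510, minus strand: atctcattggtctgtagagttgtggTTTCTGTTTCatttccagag
Trim12c, chr7:104353344-104353403, minus strand: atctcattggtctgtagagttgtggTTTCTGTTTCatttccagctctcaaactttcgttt
Trim5, chr7:104288121-104288180, minus strand: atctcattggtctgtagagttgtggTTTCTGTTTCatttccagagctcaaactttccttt
Trim34a, chr7:104244442-104244486, plus strand: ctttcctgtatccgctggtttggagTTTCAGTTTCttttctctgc
Trim26, chr17:36836961-36837026, plus strand: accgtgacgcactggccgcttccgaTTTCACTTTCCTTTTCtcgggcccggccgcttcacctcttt
Trim21, chr7:102565453-102565494, minus strand: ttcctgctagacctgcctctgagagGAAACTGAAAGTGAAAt

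Trim26 and Trim21 each held 2 overlapping matches, which the longer run of capitals covers. The match began 36 bases before the upstream RefSeq start of Trim30a and 41 before that of Trim30d, and the printed windows of these genes differed at 1 of 60 bases. The windows of Trim12a and Trim5 were identical over the 45 bases they share, and those of Trim12c and Trim5 differed at 3 of 60. Whole promoters were alike as well, with 93.9% identity over 294 aligned bases for Trim30a and Trim30d and 247 of 260 bases alike for Trim12a and Trim12c, so the matches in these paralogues are not independent occurrences. Trim12a and Trim5 thus carry the same window at mean levels of 114 and 6.11 TPM, though the match begins 11 bases after the RefSeq start of Trim12a and 49 before that of Trim5. In other pairs the higher gene alone had a match: Trim34a at 79.4 TPM against Trim34b at 0.44, and Trim30a at 268 TPM against Trim30b at 24.2. The RefSeq promoters of these pairs aligned over only 15 and 17 bases. That of Trim30b, at chr7:104358597-104358896, lies inside the annotated gene, whose 5′ end on the minus strand is at 104369884. It was thus not at a like place to the upstream Trim30a promoter, and the 5′ end of Trim30b was not searched. Trim30c, at a mean of 53.9 TPM, also had no match. Of 176 aligned bases of its promoter and the upstream Trim30a promoter, 157 were alike. A gamma-activated site, searched on either strand as TTC, any 3 bases, GAA, was found for 6 of the 53 members and 9.55% of all genes (8.30% of promoters), and a kappaB motif for 1 of 53 and 5.14% of genes (4.51% of promoters). A match is only a description of the letters, and the absence of one says no more than that they are not in this window.

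Among TRIM genes known to act on innate sensing, a few were high and others low or undetected. Of the 17 genes in this list, 12 were at 1 TPM or more in each library and 6 at 10 TPM or more. The median was 6.35 ± 2.21 TPM (SD, n = 3). Trim26, reported to act on IRF3 and on the kinase TBK1, was at 148, 99.3 and 106 TPM in replicates 1 to 3. Trim21, a cytosolic Fc receptor that sends antibody-coated virus to the proteasome with the help of the unfoldase VCP, was at 133, 87.0 and 115 TPM. Trim25, which attaches ubiquitin chains to the RNA sensor RIG-I, was at 108, 72.0 and 81.1 TPM. These 3 genes were lowest in replicate 2 and highest in replicate 1.

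Trim35, reported to act on TRAF3 and IRF7, was at 52.7, 46.9 and 52.1 TPM, and Trim14, an adaptor at the mitochondrial protein MAVS, at 42.4, 47.3 and 44.1 TPM. Trim56, a ligase of the DNA-sensing pathway of cGAS and STING, was at 23.18, 20.97 and 20.96 TPM. These 3 had narrow ranges in TPM and no common order of the libraries. With TPM rescaled so that protein-coding genes summed to the same total in each library, all 3 were lowest in replicate 1. Trim14 was then at 124, 173 and 150 in replicates 1 to 3. Trim14 overlaps Nans on the opposite strand, and 30.3% of its 31-base words occur on the opposite strand of Nans transcripts. Trim13, a ligase of the endoplasmic reticulum membrane, was at 8.70, 2.96 and 6.03 TPM. It lies opposite the long noncoding RNA gene Dleu2, listed with a mean of 98.5 TPM, and a strand setting for the counting was not found in the labels or headers. This limit is not particular to Trim13, as 27 of the 68 members overlap a gene on the opposite strand. Trim65, a ligase of the RNA sensor MDA5, had a mean of 2.50 TPM. The remaining detected genes of the list, Trim8, Trim27, Trim23 and Trim68, had means of 14.2, 11.3, 4.52 and 1.81 TPM. At the low end, Trim38 was at 0.06 to 0.08 TPM and Trim31, which acts on MAVS, was listed at 0 in each library. For Trim31 counting error alone leaves an upper limit (3 counts) of 0.135, 0.0766 and 0.0993 TPM across replicates 1 to 3.

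Genes for the targets and partners of these ligases were present too. All 15 sensing genes examined were at 1 TPM or more in each library and 12 at 10 or more. The highest were Irf7 with a mean of 294 ± 44.2 TPM (SD, n = 3), Ifih1, which encodes MDA5, with 279 ± 184, and Nlrp3, the sensor of the inflammasome, with 275 ± 24.0. Ifih1 was at 488 TPM in replicate 1 and at 137 and 214 TPM in the others. All 11 E2 enzyme genes and partners reached 1 TPM in each library, led by Ube2d3 with a mean of 147 TPM, Ube2d2a with 87.3 and Ube2n, which makes lysine-63-linked chains, with 39.4. TRIM-family genes that carry other names ranged from high to undetected. Pml, the organiser of nuclear bodies, had a mean of 72.1 TPM, Mid1 61.5 and Mefv, which encodes pyrin, 51.4, while the other 5 of 8 did not reach 1 TPM in each library. Mid1 depended on the table, with a mean of 260 TPM in the one made from reads directly.

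The chromatin corepressors of the family were at middle levels. Trim28, the KAP1 protein that KRAB zinc fingers recruit to silence transposable elements, was at 18.2, 24.4 and 31.2 TPM in replicates 1 to 3. Trim33 was at 19.2, 16.4 and 18.8 TPM and Trim24 at 10.9, 13.5 and 11.1 TPM. Both encode relatives of KAP1 with a PHD finger and a bromodomain, which bind histone tails. The fourth gene of this group, Trim66, was at 0.04, 0.11 and 0.08 TPM. The median of the 4 was 14.8 ± 0.24 TPM (SD, n = 3). Partners of KAP1 were detected in each library for 5 of 5 genes, with Chd3 at a mean of 32.6 TPM, the HP1 gene Cbx1 at 16.3 and the histone methyltransferase gene Setdb1 at 12.2.

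Members known mainly from muscle, brain, testis or early embryo were mostly low. Of 23 such genes 4 were at 1 TPM or more in each library, 0 at 10 or more, and 8 were listed at 0 in all 3, and the median was 0.0067 TPM. The exceptions were Trim36, Trim43c, Trim17 and Trim15. Trim36, a microtubule-associated ligase described in testis, was at 22.5, 7.14 and 11.6 TPM in replicates 1, 2 and 3, a mean of 13.7 TPM that fell to 9.37 when replicate 1 was left out. Trim43c, of a family active in the preimplantation embryo, was at 4.73, 2.06 and 2.53 TPM. Of its 31-base words 58.6% occur in transcripts of another gene, mostly its own copies, and 33.2% occur on the opposite strand of 9330159M07Rik, a noncoding gene listed with a mean of 20.0 TPM. Trim17 was at 2.61, 2.11 and 1.96 TPM and shares 18.2% of its words with the histone gene Hist3h2a. Trim63, the muscle ligase MuRF1, was listed at 0 in each library, as were 3 of the 5 muscle markers.

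Of the 14 members in none of these lists, 8 were at 1 TPM or more in each library, and the median was 1.58 ± 0.26 TPM (SD, n = 3). Trim3, a member with NHL repeats in place of the PRY-SPRY domain, was at 24.1, 28.0 and 41.1 TPM. Trim41 was at 17.2, 26.8 and 26.4 TPM and Trim11 at 12.2, 14.8 and 16.1 TPM. In all 3 genes replicate 1 was the lowest, the reverse of the highest cluster genes. Trim39, Trim44, Trim59 and Trim7, also detected, had means of 10.3, 8.18, 1.87 and 1.47 TPM. Trim37, a ligase of histone H2A mutated in mulibrey nanism, was at 1.28, 2.40 and 2.12 TPM, and Trim80 was listed at 0.

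The order of the 12 highest members held in part. From the top they were Trim30a, Trim30d, Trim26, Trim12a, Trim21, Trim25, Trim34a, Trim30c, Trim35, Trim14, Trim3 and Trim28, and 7 of the 11 pairs of neighbours kept their order in each library. Trim12a and Trim21, Trim25 and Trim34a, Trim30c and Trim35, and Trim35 and Trim14 changed places between libraries. The step from Trim30d down to Trim26 was 0.70 ± 0.01 on the log2(TPM + 1) scale (SD, n = 3), while that from Trim26 to Trim12a was 0.05 ± 0.02. Pairs that kept their order had p = 0.25 in the exact sign-flip permutation test, the smallest it allows.

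Replicate 1 was the highest of the 3 libraries for 19 of the 36 detected members, and for 38.2% of all detected protein-coding genes. This was uneven within the family. In the cluster it was the highest for 8 of 9 detected genes, the exception being Trim6, and elsewhere for 11 of 27. The median ratio of replicate 1 to the mean of replicates 2 and 3 was 1.39 in the cluster, 0.901 over the other members and 0.982 over all detected protein-coding genes. Trim36 and Trim30c had ratios of 2.40 each, Trim43c 2.06 and Trim30b 2.03. High ratios were not particular to the cluster. Trim26, Trim25 and Trim21, outside it but among the 7 highest members, had 1.44, 1.41 and 1.31, and Trim30a had 1.39. When TPM was rescaled so that protein-coding genes summed to the same total in each library, replicate 1 was highest for 13 of 36 members and for 22% of detected protein-coding genes. It was then highest for 7 of the 9 cluster genes and 6 of the 27 others, with median ratios of 1.15 and 0.750 against 0.816 over all. Replicate 1 also had the most starting RNA, the fewest counts and the highest protein-coding share, and the part of these in the difference was not tested.

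**Figure D3:**
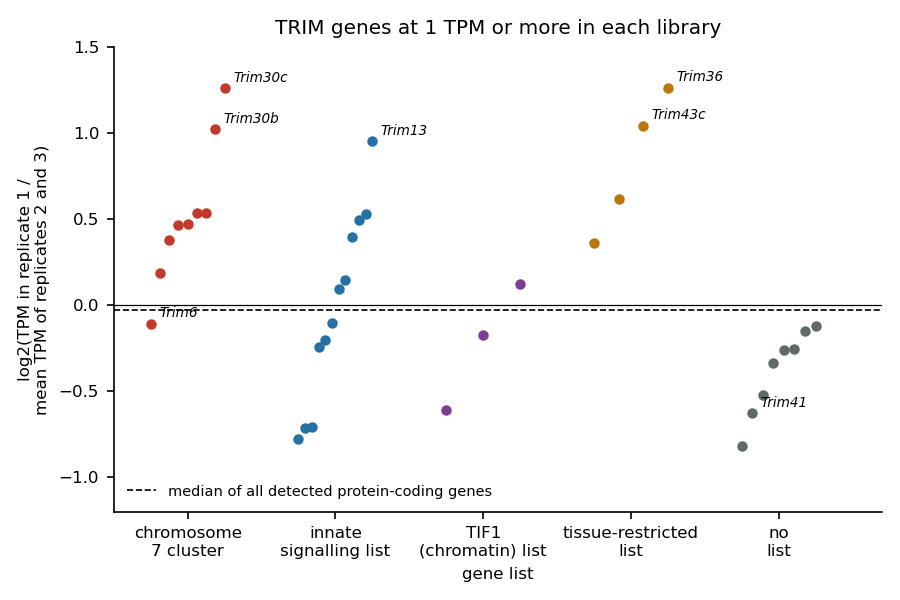
log2 ratio of TPM in replicate 1 to the mean of replicates 2 and 3 for each of the 36 detected TRIM genes, by gene list; the solid line is equality and the dashed line the median of all detected protein-coding genes. Of 9 cluster genes 8 lie above 0, with Trim6 below, and the 8 genes in no list all lie below it.

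The estimated spread between libraries beyond counting noise had a like median in members and in other genes. The biological coefficient of variation, estimated with edgeR from the expected counts of all genes, had a median of 0.25 over the 42 members that passed its filter on low counts and of 0.25 over 10308 protein-coding genes. It ranged from 0.199 for Trim35 to 0.383 for Trim62, a low gene named here for being the maximum after its values were seen. Trim30c was at 0.329 and Trim36 at 0.371. These estimates are drawn toward the average of all genes, and on simulated counts a true value of 0.8 was returned as 0.313. The likeness of the medians is therefore in part built in by the method.

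Chromatin RNA holds unspliced and partly spliced transcripts, so the deposited transcript levels were also divided by annotated transcript type. Of the detected members 17 have a transcript annotated as retained intron, that is a transcript model that keeps at least part of an intron. On these models lay a median of 40.6% ± 2.84 of the gene's transcript TPM (SD, n = 3), and 48.0% ± 2.41 over 5883 protein-coding genes chosen in the same way. The share was over 50% in each library for 5 of the 17, against 36.9% of those genes, and the 5 were Trim3, Trim28, Trim21, Trim24 and Trim33. The 3 detected corepressor genes are thus among them, with 72.0% ± 7.45 for Trim28, 59.99% ± 6.20 for Trim24 and 55.7% ± 4.86 for Trim33 (SD, n = 3 each). For Trim21 the share was 70.2%, 69.4% and 67.8% in replicates 1 to 3. Such a share covers only signal assigned to annotated retained-intron models. It does not measure how much of a gene's RNA is spliced.

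Trim30a had the lowest share in this table. Its share on the retained-intron model was 12.7%, 18.5% and 12.7%, and 81.5% ± 4.65 of its TPM lay on a single protein-coding transcript, ENSMUST00000076922.5. Trim37 had 17.9% ± 0.73 and Trim30b 24.9% ± 5.38 on such models. These shares depended on the table. In the one made from reads directly they differed by more than the SD between libraries for 11 of the 17 genes, higher for 8 and lower for 3. There the mean was 35.6% for Trim30a, 61.8% for Trim37 and 10.5% for Trim30b, and 4 of the 17 genes lay below Trim30a. In Trim26, 44.6% lay on a transcript annotated as processed, 39.8% on retained-intron models and 15.6% on protein-coding models. Because TPM divides by the length of the models that reads were assigned to, members of like TPM differed in depth. The mean of 24.6 TPM for Trim28 came from 121, 365 and 350 expected counts in replicates 1 to 3, while that of 21.7 TPM for Trim56 came from 1977, 2869 and 2307.

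**Figure D4:**
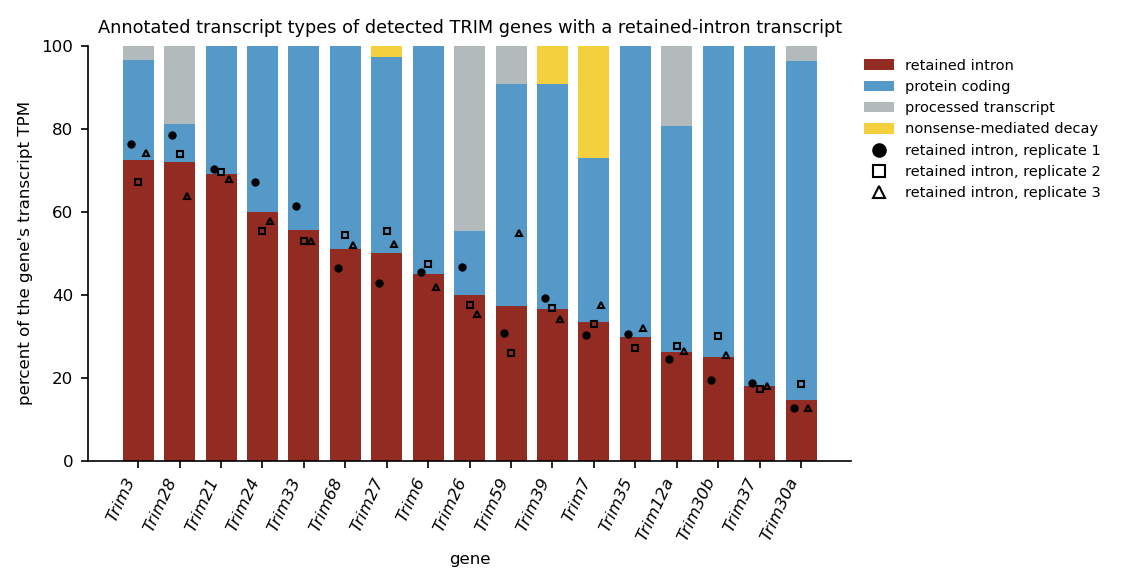
Percent of transcript TPM on each annotated transcript type (bars, mean of 3 libraries) for the 17 detected TRIM genes with a retained-intron model; points are the retained-intron percent in each replicate. In this table, made from alignments, the share runs from 72.5% in Trim3 to 14.6% in Trim30a.

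The table made from reads directly gave other levels for many members. Of the 32 members named by rule, 17 had a mean there that differed from the gene table by more than the SD between libraries, such as Trim14 with 76.2 and Trim41 with 39.4 TPM. Of the 36 detected genes, 4 (Trim30b, Trim6, Trim65 and Trim37) were over 2-fold higher in it, which held for 17.5% of detected protein-coding genes, and 0 were over 2-fold lower. Trim30b had a mean of 48.7 TPM there, Trim6 11.4, Trim65 6.81 and Trim37 5.11. Trim6 is named for being in this count after its values were seen. Of the 11 members listed at 0 in the gene table, 2 were at 1 TPM or more in each library of the other one, a pattern found for 11% of protein-coding genes listed at 0. They were Trim52 and Trim63.

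**Figure D5:**
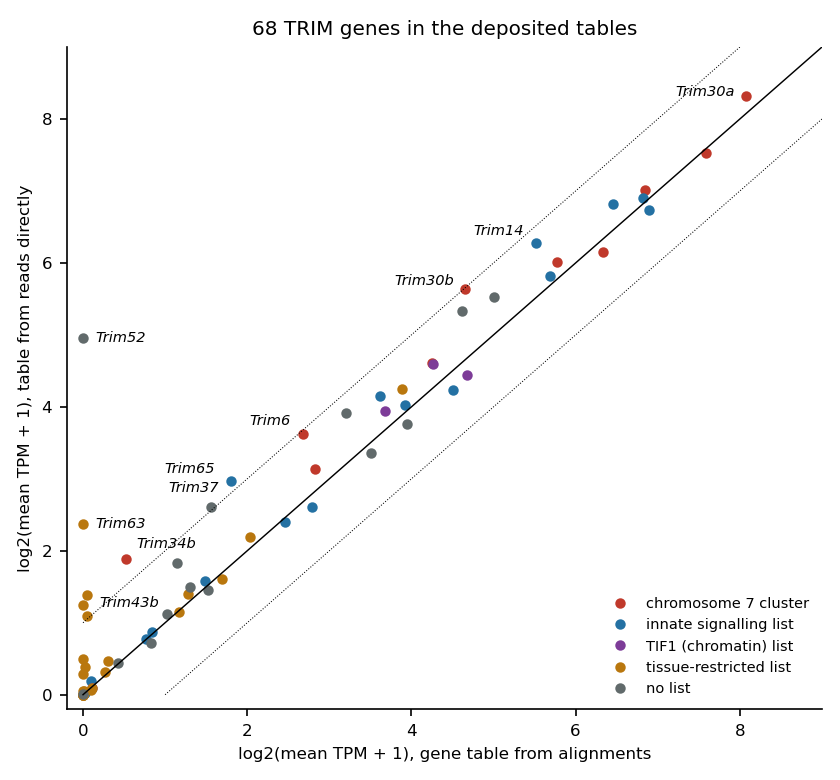
log2(mean TPM + 1) of the 68 TRIM genes in the gene table made from alignments (x axis) and in sums of the transcript table made from reads directly (y axis); the solid line is equality, the dotted lines a 2-fold difference on the log2(TPM + 1) scale, and colours are the gene lists. Most genes lie between the dotted lines, and Trim52 and Trim63 lie at 0 on the x axis.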

How the data were processed

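Per the file headers and the labels, the authors deposited for each library a gene table and a transcript table of expected counts and TPM made from transcriptome alignments, and another transcript table of estimated counts and TPM made from reads, all on mm10 with GENCODE M21. Aligner, quantifiers and strand setting: not given in the sources used here. Values come from the gene table unless the other is named. A member counted as detected at 1 TPM or more in each library, and log2 values used a pseudocount of 1 TPM. Rows that are no gene took 1.37%, 0.337% and 0.456% of the counts in replicates 1 to 3 and were left out of library sizes. Expected counts were rounded for edgeR 4.0.16 (TMM, intercept-only fit, R 4.3.3), and DESeq2 1.42.0 size factors were the alternative. Tests were exact sign-flip permutation tests over libraries (Python 3.11.15, SciPy 1.17.1). Shared 31-base words were counted between M21 transcripts of different genes. The variation estimate was tested on simulated counts, and the sign-flip test was checked only on short fixed sets of values.

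The members and gene lists were chosen with earlier results of these data known. Genes named are the 12 highest, the 3 highest and the lowest of each list, fixed members of the cluster and of innate sensing, the 3 most variable, the 3 that differed most between the tables, and the 3 highest of each list of partner genes. Any other member is named as part of a count or as a neighbour, after its values were seen. Of the partner genes, Mb21d1 was matched to the symbol Cgas through RefSeq synonyms. Alternatives were each replicate left out, the other table, other limits, scalings and pseudocounts, and counts without length correction.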

Additional observations from a re-analysis of the deposited data

Results flagged for a closer look

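Trim52 and Trim63 were listed at 0 in each library of the gene table but had signal in the transcript table made from reads directly, which the main levels do not use. Trim52 had a mean of 30.1 TPM there, with 48.9, 22.2 and 19.3 TPM in replicates 1, 2 and 3, and was named after its values were seen. Of its 31-base words 1.38% occur in transcripts of another gene on the same strand. Trim63 had a mean of 4.17 TPM, with 5.14, 3.49 and 3.87 TPM. The libraries have no control group to set these levels against, and the limit that a count of 0 allows in the gene table was at most 0.170 TPM for Trim52 and 0.201 TPM for Trim63.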

How the results depend on the processing

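Of 35 alternative values for the main results other than the paralogue differences, 27 stayed within the SD of the main value or within 1.5 times its count and 8 moved. Of 24 for the paralogue differences, 24 kept their sign and 8 moved by more than the SD. Leaving a replicate out could not reverse a sign, because each difference was positive in 3 of 3 libraries. Nor can it move a mean of the same library values beyond their SD, so such alternatives counted as unmoved in advance. The median member level was 1.53 TPM as reported. It was 2.65 TPM in the table made from reads directly, 5.08 TPM when rescaled to protein-coding genes, 12.8 TPM with members below a mean of 1 TPM left out, and 3.80 TPM as a mean of log2(TPM + 1). The members' share of protein-coding TPM was 0.415% in the table made from reads directly, and the median retained-intron share was 50.3% there and 44.9% over members with at least 5 TPM. The biological coefficient of variation was 0.301 with no filter on low counts. Rescaling divides each TPM by the protein-coding share of its library, so by construction it raises every level above 0. Limits and filters change which members enter. The cause of the other moves was not tested. With each replicate left out in turn, detected members numbered 36 to 38, the cluster's share was 51.5% to 55.2%, the retained-intron median 39.6% to 42.3%, and 7 to 9 neighbour pairs kept their order. The order in the other table, an alternative chosen after seeing the data, was kept by 5 of 11 pairs. Detected members numbered 26 at 5 TPM and 46 at 0.1 TPM. In the other table the log2 difference was 0.81 for Trim30a and Trim30d, 2.38 for Trim12a and Trim12c, 4.25 for Trim34a and Trim34b and 2.77 for Trim30a and Trim30b. In log2 CPM with no length correction the first 3 were 0.85, 1.61 and 7.97, and with a pseudocount of 0.1 that of Trim34a and Trim34b was 7.25. Without replicate 1 the mean of Trim30c was 36.7 TPM. Of the 32 members named by rule, 17 moved by more than their SD in the other table, while 0 did with DESeq2 size factors in place of TMM. When rescaled to protein-coding genes 29 moved, and the 3 that did not (Trim31, Trim63 and Trim80) were listed at 0. With a replicate left out 0 moved, but this was fixed in advance, as the mean of the libraries left always lies within the SD of all 3. No paired analysis was possible because there was 1 group. Low members rest on few counts, such as 6 to 17 for Trim34b, and the exact sign-flip test over 3 libraries cannot pass 0.05.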
